A study of Homo sapiens with 19 samples.

Results

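Cassette exons of 28 to 75 nt whose length is not divisible by 3 were followed across 19 human RNA-seq libraries. Such an exon is included or skipped as a unit between the same neighbouring exons, and because of its length either choice shifts the reading frame of the mRNA downstream. An exon was taken where GENCODE annotates its 2 inclusion junctions and a skipping junction with the same outer ends, and where all 3 junctions were read in the deposited junction tables. This gave 2753 exons in 2252 genes, out of 23383 cassette exons of up to 1000 nt. Their median length was 59 nt, 1373 of them were 1 nt and 1380 were 2 nt over a multiple of 3, and 146 shared their outer junction with another exon of the set. At the edges of the length window, the median inclusion was 36.2% for 28-nt, 5.71% for 29-nt and 92.9% for 74-nt exons, against 12.5% for 26-nt and 95.02% for 76-nt exons just outside it. The short edge is thinly filled, with 22 exons of 28 nt, 19 of 29 nt and 21 of 26 nt, of which 6, 5 and 4 had the reads and intermediate inclusion to be tested.

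The study used an RNA-targeting CRISPR nuclease, Cas13d, to lower RBFOX2, a splicing regulator, either in all its transcripts (total KD) or in transcripts that differ at the N-terminal end (named N-long KD and N-short KD here). All the knockdown libraries came from HUES66, a human embryonic stem cell line, all treated with doxycycline at 1 µg/ml, the controls included, with the control genotype labelled wild type. There were 3 control libraries (24 hr replicate 2, 48 hr and 96 hr), 3 total KD libraries (24 hr replicate 1, 48 hr and 96 hr), 4 N-short KD and 4 N-long KD libraries (24 hr replicates 1 and 2, 48 hr and 96 hr each). The other 5 libraries, with no doxycycline in their labels, were HUES66 wild type, the embryonic kidney line HEK293, and total, nuclear and cytoplasmic RNA of the melanoma line A375, at 1 library each. The labels state neither whether replicates came from separate cultures nor whether a HUES66 line is 1 clone, so p-values measure only the spread between these libraries, which may be technical.

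Exons that shift the frame are often switches of mRNA stability. Where inclusion or skipping brings a stop codon well ahead of the last exon junction, the mRNA is a substrate of nonsense-mediated decay, a translation-dependent surveillance pathway in the cytoplasm. Many splicing factors carry such exons in their own genes and use them to limit their own mRNA, and other genes use a frame shift near the end of the coding sequence to swap the C-terminal part of the protein. RBFOX proteins bind GCAUG elements, mostly in introns near regulated exons.

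Exons on which the knockdown and fraction results turn are shown here as they stand in GENCODE 29 transcripts on GRCh38, 5′ to 3′, beginning with 9 coding bases of the upstream exon. In the first set, inclusion brings a stop codon inside the exon itself. The bases run to the end of that stop codon, which is in capitals.
ARHGAP17 (chr16:24927684-24927732, minus strand): tagtaacagatgtaTGA
CCNL1 (chr3:157157011-157157083, minus strand): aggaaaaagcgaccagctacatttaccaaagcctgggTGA
RBM39 (chr20:35740525-35740597, minus strand): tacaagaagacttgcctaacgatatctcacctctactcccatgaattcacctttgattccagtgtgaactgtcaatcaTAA
PRPF38B (chr1:108693590-108693642, plus strand): tactttaaggatTGA
In the second set the whole exon is in capitals, between 9 bases of each neighbouring exon. MDM4 is added to them for its change with time and was chosen after its values were seen.
OSBPL8 (chr12:76459859-76459895, minus strand): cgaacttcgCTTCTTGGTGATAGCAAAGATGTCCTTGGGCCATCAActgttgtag
IQSEC1 (chr3:12902773-12902822, minus strand): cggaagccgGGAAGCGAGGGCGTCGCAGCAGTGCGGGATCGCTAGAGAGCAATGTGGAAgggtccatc
EPHA2 (chr1:16150896-16150963, minus strand): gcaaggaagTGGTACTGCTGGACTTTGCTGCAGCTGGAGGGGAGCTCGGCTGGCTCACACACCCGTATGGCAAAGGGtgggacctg
ARIH2 (chr3:48945136-48945181, plus strand): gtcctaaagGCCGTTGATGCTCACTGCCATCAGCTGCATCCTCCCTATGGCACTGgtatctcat
TRMT13 (chr1:100140182-100140251, plus strand): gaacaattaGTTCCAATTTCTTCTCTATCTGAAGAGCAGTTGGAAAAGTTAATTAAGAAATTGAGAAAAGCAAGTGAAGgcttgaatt
MDM4 (chr1:204537430-204537497, plus strand): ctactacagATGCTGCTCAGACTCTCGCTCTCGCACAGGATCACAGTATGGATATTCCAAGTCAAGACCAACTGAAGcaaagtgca
When the OSBPL8 exon is skipped, the shifted frame reaches a stop codon that ends 9 nt past the new junction, and for EPHA2 that distance is 29 nt. When the ARIH2 exon is included, the stop codon ends 66 nt after the exon's first base, in the next exon. The letters TGCATG, the extended RBFOX element, stood on the sense strand in 34 of the 2672 exons with a transcript sequence. Among 2359 frame-keeping exons of the same length range 36 held them. With the opposite strand counted too, which is not in the RNA, the numbers were 65 (2.43%) and 61 (2.59%). Introns were not searched.

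The libraries held 6499183 to 27937149 junction reads, and 9622841 to 14625040 in the 14 doxycycline-treated ones. RBFOX2, the target, stood at 119.2 to 125.8 CPM (junction reads scaled to library totals) in the controls. Total KD libraries had 48.2 to 78.7, and N-long KD libraries had 72.7 to 87.6. The N-short KD libraries had 107.1 to 120.4. Of 6 stem cell markers 5 were read in the HUES66 libraries, with POU5F1 at 872 to 1219 CPM there, 0.594 in A375 and 0.521 in HEK293. SOX2, a gene without introns, was at 0 in every library. SOX10, a melanocyte lineage factor, was at 100.3 in A375, where the pigment cell markers MLANA and TYR were both at 0. The share of junction reads on long noncoding genes was 0.552% in the library labelled A375 nuclear and 0.883% in the cytoplasmic one, so this measure did not separate them in the direction usual for nuclear RNA.

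Inclusion is the percentage of an exon's reads that support inclusion, counting the mean of its 2 inclusion junctions against its skipping junction. Of the 2753 exons, 1660 had a mean of at least 20 reads per doxycycline-treated library. Across these, most exons were nearly always included or nearly always skipped: 786 exons were above 90% and 583 below 10%, with a median of 85.7%. The position of the annotated reading frame went with that split. In 488 exons whose skipping would bring an early stop (over 50 nt ahead of the last junction), median inclusion was 98.8%, and 438 of them were above 90%. In 498 exons whose inclusion would bring the early stop, the median was 1.83%, and 406 were below 10%. Exons that the annotation has in complete coding transcripts both ways (168) had a median of 93.9% with quartiles of 62.4% and 99.0%, the widest spread among classes defined by a coding frame. For 85 exons whose inclusion shifts the frame with no early stop, as in ARHGAP17, the median was 5.27%. For 56 exons whose skipping does so, it was 98.8%. Frame-keeping exons of these lengths with no early stop either way split likewise. The median was 98.4% for 259 that complete coding transcripts hold only as included, and 2.545% for 209 only as skipped. The split was therefore also seen without an early stop and outside this set. These classes rest on the annotation, which was itself built from observed transcripts, so the split is a description and was not tested.

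**Figure D1:**
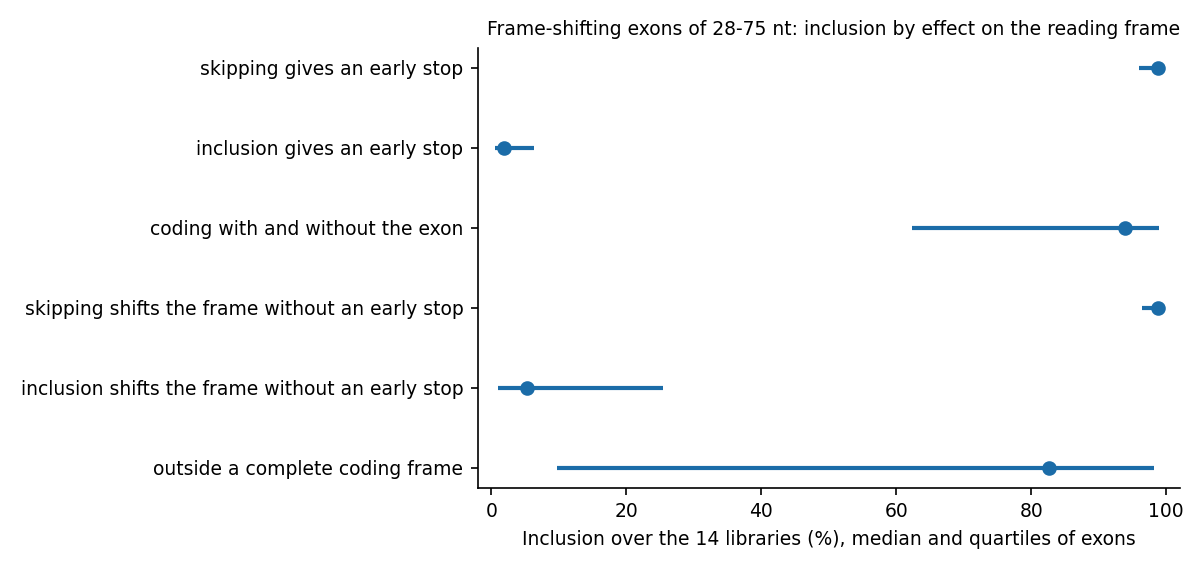
Inclusion (horizontal axis, percent, over the 14 doxycycline-treated HUES66 libraries) of frame-shifting exons of 28 to 75 nt with a mean of at least 20 reads, by the effect of the exon on the annotated reading frame. Points are medians and bars quartiles over exons: exons whose skipping gives an early stop centre on 98.8% and those whose inclusion gives one on 1.83%.

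In 554 of the 2753 exons (20.1%) the 2 inclusion junctions differed by more than 5-fold in reads over all libraries, so their mean describes neither junction. Inclusion of such an exon is uncertain, and it is named as uneven below. Of the exons tested, 159 of 816 were uneven, against 97 of 817 frame-keeping exons. Among 582 exons with at least 20 reads in all 14 doxycycline-treated libraries, the median distance from the lowest to the highest library was 11.4 points.

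The first comparison asks which of these exons follow RBFOX2. Very few were called. RBFOX2 was still read in every knockdown library and each group held few libraries, so the lack of a call does not show that an exon is independent of RBFOX2. Total KD changed 3 of 816 tested exons: a 49-nt exon of ARHGAP17 and a 50-nt exon of IQSEC1 fell, and a 37-nt exon of OSBPL8 rose. N-long KD changed ARHGAP17 alone. N-short KD gave no call. RBFOX2 itself stood at 89.8 to 98.6% of the control of the same set in N-short KD. N-long KD had 57.8 to 71.7%, and total KD had 63.6 to 64.4%. These levels count all RBFOX2 junctions together, so they do not show how far the N-short or N-long transcripts alone were lowered. Over all 6716 cassette exons tested, 1.31% were called in total KD, 0.476% in N-long KD and 0.0149% in N-short KD, and the direct comparison of both isoform knockdowns called 0.372% (edgeR quasi-likelihood test, Benjamini-Hochberg adjusted over all exons tested, threshold 0.05). The frame-shifting exons gave 3, 1, 0 and 1 calls in these comparisons, and 817 frame-keeping exons of the same lengths gave 27, 10, 0 and 8. The comparisons with control share the control libraries.

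The 49-nt exon of ARHGAP17 lies near the end of the coding sequence, and the stop codon it brings ends 8 nt into the exon and 41 nt ahead of the last junction, so the frame shift gives another C-terminal end with no early stop. The controls included it at 57.4% (24 hr), 64.1% (48 hr) and 64.6% (96 hr). In total KD it was 25.9% at 24 hr, 25.6% at 48 hr and 33.3% at 96 hr, and every total KD library lay below every control. Within library sets that hold both, the exon fell by 34.9 ± 5.08 points (SD, n = 2 sets; edgeR adjusted p = 2.28e-06), and it was called under all 15 alternatives.
In N-long KD the exon stood at 38.3% and 36.7% at 24 hr, 31.2% at 48 hr and 38.4% at 96 hr. The N-short KD libraries had 57.1%, 58.1%, 60.5% and 64.1% in the same order, and lay within or just below the controls. These isoform knockdowns did not overlap: the exon was lower by 23.9 points in N-long KD (difference -23.85 ± 4.65, SD, n = 4 sets; edgeR adjusted p = 2.69e-04). Against control it fell by 26.6 ± 6.12 points in N-long KD (n = 3 sets; edgeR adjusted p = 2.53e-04). The N-short KD difference was -1.11 ± 2.23 points (n = 3 sets; edgeR adjusted p = 0.9999). Both N-long KD calls were lost with DESeq2 (adjusted p = 0.0673 and 0.116) and with limma (0.153 and 0.365). The exon was at 48.6% of 35 reads in A375, 58.1% of 43 reads in HEK293 and 64.4% in HUES66 wild type. These are bulk libraries, so here and below a shift of inclusion in every cell and a mixture of differing cells cannot be told apart. For the read level of a gene, fewer cells of a type and less RNA per cell cannot be told apart.

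IQSEC1 encodes an exchange factor for ARF GTPases in endocytosis. Its 50-nt exon was included in 20.7% of 29 reads in the control at 24 hr, 64.3% of 42 at 48 hr and 23.1% of 39 at 96 hr. Total KD gave 4.48%, 20% and 6.25% at those times. Each was below the control of its time, but at 24 hr the 2 libraries belong to different library series. The total KD value at 48 hr lay close to the controls at 24 and 96 hr. The exon fell by 30.6 ± 19.4 points (n = 2 sets; edgeR adjusted p = 4.68e-04). The call was lost without the control at 48 hr (adjusted p = 0.103), without total KD at 48 hr (0.0537) and with DESeq2 (0.061). The log2 odds ratio of inclusion was then -2.22, -2.60 and -2.58, against -2.58 with all libraries. Its range was 13.3% to 42.9% in N-short KD. N-long KD ran from 11.3% to 41.1%, and neither gave a call. In the authors' deposited table for total KD at 48 hr the exon has an inclusion difference of 0.449, control minus knockdown, with an adjusted p of 0.00437, and at 24 and 96 hr that adjusted p was 0.263 and 0.610.

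OSBPL8 encodes a lipid transfer protein at contacts between the endoplasmic reticulum and the plasma membrane. Its 37-nt exon is a coding exon whose loss brings an early stop. Control libraries had 50%, 45.3% and 52.7% inclusion, and total KD had 59.7%, 70% and 67.6%, with no overlap. The exon rose by 19.8 ± 6.92 points (n = 2 sets; edgeR adjusted p = 0.0213). This call did not hold in 9 of 15 alternatives, with adjusted p up to 0.896 (DESeq2). Among them were the fits without total KD at 24 hr (0.0908) or 48 hr (0.255) and without the control at 48 hr (0.222) or 96 hr (0.142). N-long KD ran from 50% to 67.1%, also above control on average (13.2 ± 6.13 points, n = 3 sets) but not past the threshold (edgeR adjusted p = 0.452). The authors' deposited tables hold 2 events for this exon, none with an adjusted p under 0.613.

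**Figure D2:**
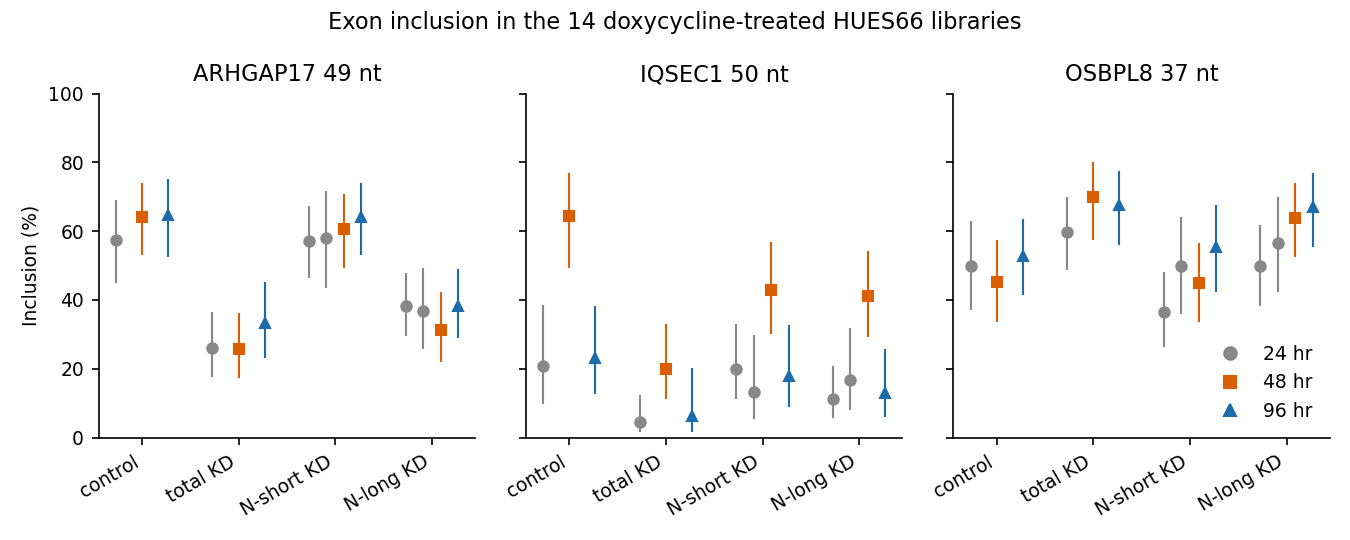
Inclusion (vertical axis, percent) of the 3 exons called in a knockdown, in each doxycycline-treated HUES66 library, grouped by knockdown; symbols mark the time and bars are 95% Wilson intervals, which cover counting error only. ARHGAP17 lies at 25.6 to 38.4% in all total KD and N-long KD libraries and at 57.1 to 64.6% in all control and N-short KD libraries, while the IQSEC1 control at 48 hr, at 64.3%, lies far above the controls at 24 and 96 hr.

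At an unadjusted p under 0.05 there were 47 of 816 exons in total KD (5.76%, against 7.77% over all exons tested), 46 in N-long KD (5.64%, against 5.52%) and 34 in N-short KD (4.17%, against 4.30%). For N-short KD, DESeq2 and limma also called 0, with 7 and 44 exons at an unadjusted p under 0.05. Among genes of splicing and RNA-binding proteins, 18 exons were tested and 0 passed in total KD, with a median difference of -0.385 points. The lists of cell death, chromatin and DNA repair, and cytoskeleton and traffic genes had 4, 11 and 2 exons tested, with 0 called. A list of 10 genes whose exons had responded to the knockdown in earlier results of these data held 1 such exon, which was not among those tested. RBFOX2 itself carries a 40-nt exon of this kind (chr22:35756105-35756144), known as an alternative coding exon near the C-terminal end and named here after its values were seen. It was included at 92.2 to 96.9% in controls, 87.5 to 98.7% in total KD and 85.1 to 98.8% in N-short KD, with no call. All N-long KD libraries had 97.3 to 98.5%, also with no call. The difference from control was 3.33 ± 2.86 points (SD; edgeR adjusted p = 0.973), and the adjusted p against N-short KD was 0.789.

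More exons were called between times than in any knockdown. Between the 48 and 96 hr libraries, which belong to 1 library series, 126 of 816 exons in 119 genes changed: 75 were higher and 51 lower at 96 hr. Over all exons tested 16.6% were called, 8.56% higher and 8.07% lower, so the share among the frame-shifting exons (15.4%) was near the background. The median size of the 126 differences was 9.86 points, 63 were at least 10 points, 116 had the same direction in all 4 groups, and in 103 the 4 libraries of one time did not overlap the 4 of the other. The 126 exons were called for that same difference, so these counts partly restate the choice. They were not taken over all exons tested. Each time is 1 library set, and libraries of a set deviate together, so time and set cannot be told apart here and the p-values measure the spread among the libraries of these sets. With DESeq2 41 exons were called.
For 100 of the 126 exons the median of the 6 libraries at 24 hr lay nearer to 96 hr than to 48 hr. The 24 hr median was between the 48 and 96 hr medians in 104 exons, beyond 96 hr in 21 and beyond 48 hr in 1. These positions were taken only for exons chosen by their difference between 48 and 96 hr. The median distance was 2.46 points from 24 to 96 hr and 6.43 points from 24 to 48 hr. Time and library series coincide between 24 hr and the later libraries, so that comparison was not tested. Summed stem cell markers were 2657 to 2770 CPM at 48 hr and 3175 to 3849 at 96 hr (6 genes, SOX2 at 0). The genes of this list differed in direction. DNMT3B was at 1086 to 1286 CPM at 48 hr and 1727 to 2341 at 96 hr, and LIN28A at 254.5 to 264.1 and 281.7 to 313.6. POU5F1 was lower at 96 hr (1082 to 1219 and 1037 to 1081), as was NANOG (34.6 to 36.7 and 27.5 to 34.3). SALL4 overlapped between the times. The melanocyte list gave 65.8 to 69.8 and 36.9 to 43.9 (6 genes, MLANA and TYR at 0), and the list of other lineages 200.5 to 231.6 and 164.1 to 221 (6 genes, 1 at 0). Depth was 12208870 to 14403078 reads at 48 hr and 11009271 to 13320107 at 96 hr. The part of these in the inclusion differences was not tested.

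The 6 largest differences with 1 direction in every group were rises from 48 to 96 hr. A 53-nt exon of the long noncoding RNA DLEU1 (chr13:50083142-50083194) was at 17.1%, 24.1%, 21.6% and 35% at 48 hr in control, total, N-short and N-long KD, and at 66.7%, 61.8%, 61.5% and 71.1% at 96 hr. It rose by 40.8 ± 6.06 points (n = 4 groups; edgeR adjusted p = 2.24e-07), and the 24 hr libraries had 42.9 to 61.9%. A 46-nt exon of FZD3, a Wnt receptor gene, stood at 31.2 to 48.3% at 48 hr, 76 to 85.3% at 96 hr and 62.96 to 100% at 24 hr, on 17 to 34 reads per library.
CSNK1D encodes casein kinase 1 delta, which sets the pace of the circadian clock, and its 64-nt exon (chr17:82245976-82246039) brings a stop codon close to the end of the coding sequence. It was at 41.7%, 27.1%, 36.7% and 37.5% at 48 hr and 69.8%, 72.2%, 70.1% and 64.7% at 96 hr, in the same order of groups, a rise of 33.5 ± 8.22 points (n = 4; edgeR adjusted p = 1.10e-07). A 68-nt exon of DNMT3A, a de novo DNA methyltransferase (chr2:25249657-25249724), rose by 31.8 ± 6.34 points, from 27.03 to 34.3% at 48 hr to 58.5 to 71.4% at 96 hr (edgeR adjusted p = 3.17e-05). The exon had no reads in any A375 library and 1 in HEK293.
MDM4 restrains p53, and skipping of its 68-nt exon is known to give a short form of the protein. In the annotated coding transcript with the exon, skipping brings a stop codon 412 nt ahead of the last junction. The annotation also has a complete coding transcript without the exon. Inclusion of the exon was 42.4%, 66.1%, 54.9% and 42.5% at 48 hr and 79.2%, 81.8%, 83.0% and 87.9% at 96 hr, a rise of 31.5 ± 12.7 points (n = 4; edgeR adjusted p = 4.43e-07). At 24 hr the 3 libraries of replicate 1 had 93.1 to 94.2% and those of replicate 2 had 60.4 to 73.9%, so the library series also differed at 1 time. A 37-nt exon of CCDC169, at 32.1 to 40% at 48 hr and 66.7 to 83.3% at 96 hr, is uneven, with 24 upstream and 479 downstream junction reads.

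**Figure D3:**
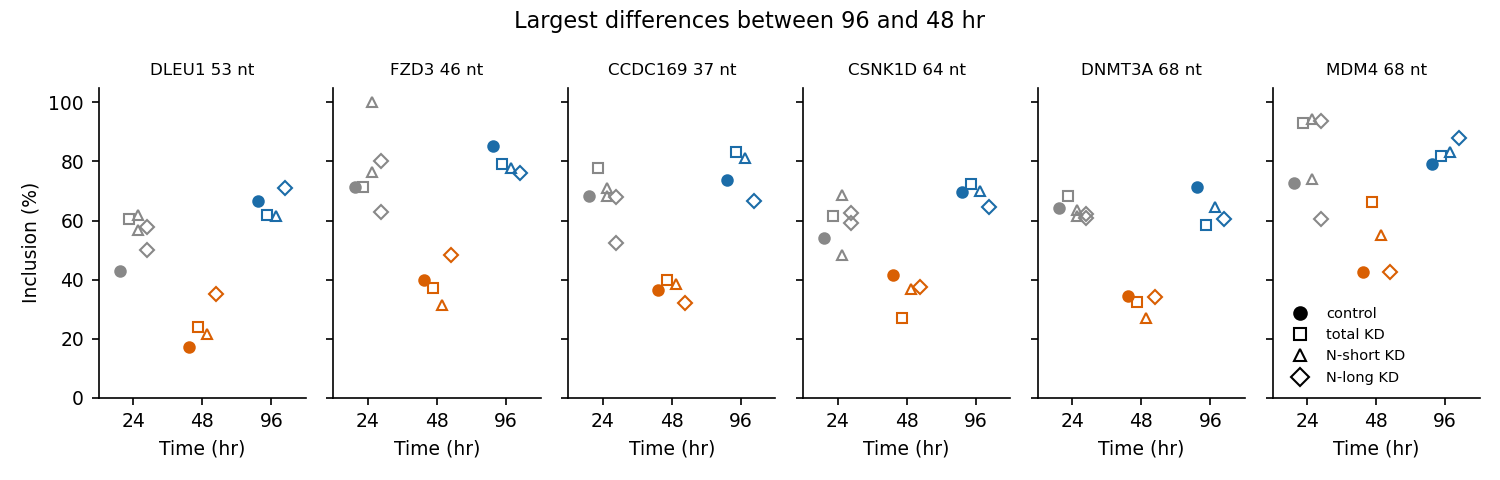
Inclusion (vertical axis, percent) of the 6 exons with the largest difference between 96 and 48 hr, by time in hours; each symbol is 1 library and its shape the group. At 48 hr DLEU1 ran from 17.1 to 35% and at 96 hr from 61.5 to 71.1%, and the 24 hr libraries had 42.9 to 61.9%.

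Among exons that fell, chosen after their values were seen, a 38-nt exon of MRPL55, a mitochondrial ribosomal protein gene, dropped by 27.99 ± 1.76 points (edgeR adjusted p = 9.62e-04). A 28-nt exon of NKTR (starting at 42627200 on chromosome 3) dropped by 30.4 ± 17.1 points (edgeR adjusted p = 0.00444). A second 28-nt exon of this gene, starting at 42620016, dropped by 23.02 ± 8.89 points (edgeR adjusted p = 1.42e-04). NKTR encodes a cyclophilin-related protein, and either exon brings an early stop. TUSC3, an oligosaccharyltransferase subunit gene, had a 65-nt exon that dropped by 30.4 ± 3.41 points (edgeR adjusted p = 5.93e-11). The IQSEC1 exon dropped by 26.97 ± 11.3 points from 48 to 96 hr (edgeR adjusted p = 1.69e-05), in addition to its difference in total KD.

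Splicing and RNA-binding protein genes had 18 exons tested with 2 higher and 5 lower at 96 hr, with a median difference of -0.397 points, where 8.56% and 8.07% of all exons tested were higher and lower. Of the 5 lower exons, 4 bring an early stop when included. Among all frame-shifting exons called, 17 of the 51 lower and 20 of the 75 higher ones do so. LUC7L, a U1 snRNP-associated factor, had a 64-nt exon at 13.8 to 22.4% at 48 hr and 2% to 6.21% at 96 hr, with 5.95 to 12.5% at 24 hr. TIAL1, a U-rich RNA-binding protein, had 2 such exons, of 68 nt (13.1 to 20% at 48 hr, 2.84 to 6.09% at 96 hr) and of 59 nt (5.76 to 8.38% and 1.38 to 2.43%). RBM39, a splicing factor, had a 73-nt exon at 21.3 to 24.1% and 14.4 to 17.8%. In each of these 4 exons the times did not overlap. The fifth, a 50-nt exon of HNRNPH1 included in most transcripts, was at 93.98 to 94.3% at 48 hr and 90.3 to 91.7% at 96 hr, on 1096 to 1429 reads per library. The higher pair were a 74-nt coding exon of RBM6 (52.0 to 66.7% and 70.4 to 81.8%; edgeR adjusted p = 0.00249) and a 46-nt exon of HNRNPC (0.408 to 0.899% and 2.58 to 3.84%; edgeR adjusted p = 1.78e-09). The LUC7L exon, the 68-nt TIAL1 exon and the RBM6 exon were named after their values were seen.
The shorter lists held few exons. Cell death and p53 genes had 4 exons tested and 1 higher at 96 hr, that of MDM4. Chromatin and DNA repair genes had 11 tested, with the 68-nt exon of DNMT3A higher and a 41-nt exon of SETD5 lower (-11.3 ± 7.31 points; edgeR adjusted p = 5.92e-04). A second frame-shifting exon of DNMT3A, of 70 nt, was included at 94.6 to 100% in every HUES66 library. Cytoskeleton and traffic genes had 2 tested and 1 higher, a 38-nt exon of the clathrin light chain gene CLTA. That exon is uneven, with 7200 upstream and 4 downstream junction reads. A 34-nt exon of PTBP2, whose skipping brings an early stop, was named after its values were seen. It was at 62.3 to 78.3% at 48 hr and 76.1 to 81.4% at 96 hr and did not pass the test (edgeR adjusted p = 0.0701).

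The next comparison was between cell lines. With 1 library each of A375 and HEK293 it has no test, and a difference counts here when both other lines lay at least 20 points from the HUES66 median, on the same side, and outside the range of the HUES66 libraries. At least 20 reads were needed in A375, in HEK293 and in 10 of the 15 HUES66 libraries. Most exons were at like levels: HUES66 and A375 were within 10 points for 1144 of 1257 exons (91.0%), HUES66 and HEK293 for 1218 of 1337 (91.1%), and A375 and HEK293 for 1097 of 1232 (89.0%). The shares among frame-keeping exons of these lengths were 81.9%, 83.1% and 84.3%, and this difference was not tested. Of 1163 frame-shifting exons, 7 were higher in HUES66 and 2 lower, where 0.734% and 0.651% of all cassette exons compared were higher and lower. Among 1054 frame-keeping exons 18 were higher and 22 lower.
A 35-nt exon of URI1, which encodes a prefoldin-like chaperone, stood at a median of 75.6% in HUES66 (60 to 87.04%), 50% in A375 and 50.7% in HEK293. A 37-nt exon of ATXN2L, a stress granule protein, stood at 48.3% (36.4 to 56.7%), 12.2% and 23.8%. For a 49-nt exon of SLC30A6, a zinc transporter, the values were 84.4% (75 to 88.9%), 62.2% and 60.5%. In all 3 exons A375 and HEK293 lay nearer to each other than to HUES66. The rule took exons with both lines at least 20 points from HUES66 on the same side, so this partly restates the choice.
RASAL2, a Ras GTPase-activating protein, had a 31-nt exon at 31.6% in HUES66 (10 to 41.5%), 2.63% in A375 and 4.76% in HEK293. ADD1, a spectrin-binding adducin, had a 34-nt exon at 26.2% (18.9 to 35.1%), 5.81% and 2.33%, and another exon of the set shares its downstream junction. The OSBPL8 exon, at 52.7% in HUES66 (36.6 to 70%), was at 30.6% in A375 and 30% in HEK293. The HUES66 median takes in knockdown libraries. In HUES66 wild type OSBPL8 stood at 45.7% and RASAL2 at 20.5%, each less than 20 points above A375 and HEK293.
The 2 exons lower in HUES66 showed the widest gaps. A 35-nt exon of NDEL1, a regulator of dynein, had a median of 0% in HUES66 (0 to 8.70%), against 47.6% of 21 reads in A375 and 62.5% of 24 reads in HEK293. A 53-nt exon of the adhesion receptor gene ADGRL2 was at 4.50% in HUES66 (2.34 to 9.22%), 52.2% in A375 and 32.3% in HEK293.
Between A375 and HEK293, 9 of 1232 exons were at least 20 points higher in A375 and 3 lower, with intervals that did not overlap, against 1.12% and 0.496% of all cassette exons compared. The MDM4 exon was at 77.6% of 67 reads in A375 and 22.2% of 36 reads in HEK293, where most transcripts thus lacked it, and at 79.2% in HUES66. An exon of 74 nt in ATRX, a chromatin remodeller, brings an early stop and was at 4.29% of 70 reads in A375 and 39.7% of 63 reads in HEK293. Exons of USP8 (59 nt; 25.6% and 69.6%) and ALDOA (52 nt; 25.4% and 65.9%) are both uneven, with 6 and 491 and with 19 and 9820 reads on their upstream and downstream junctions.

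**Figure D4:**
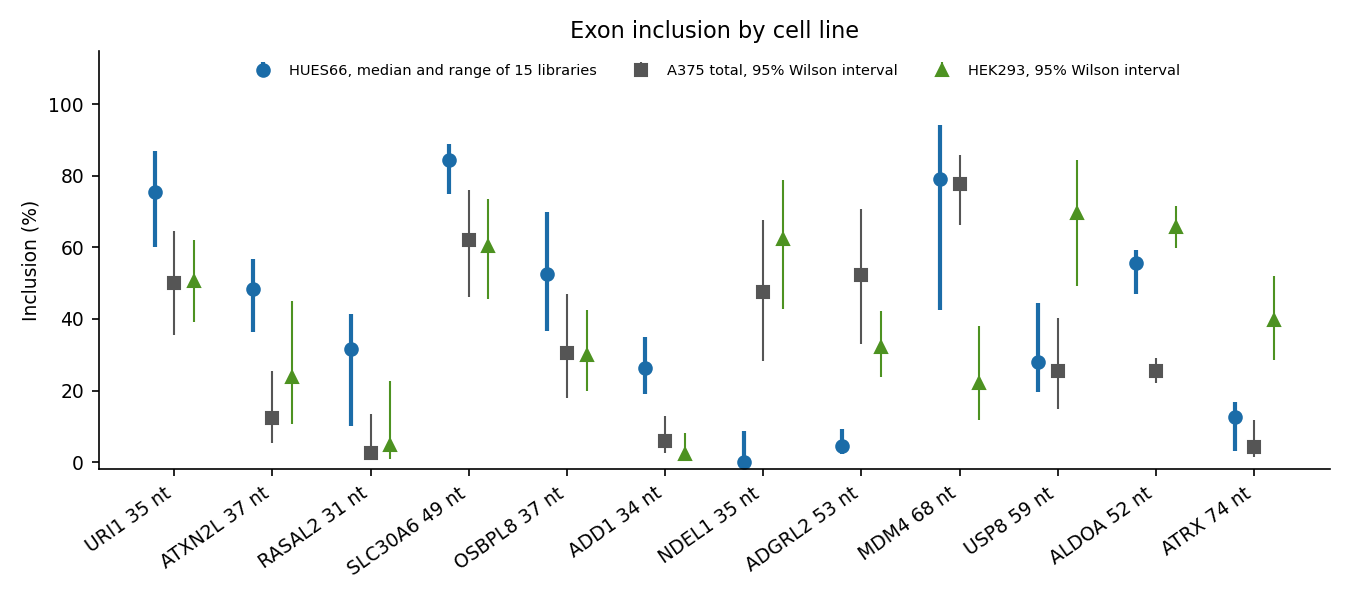
Inclusion (vertical axis, percent) of exons that differed between lines by at least 20 points. HUES66 points are medians and bars the range over 15 libraries, and A375 and HEK293 are 1 library each with 95% Wilson intervals, which cover counting error only. NDEL1 and ADGRL2 lie at 0 and 4.50% in HUES66 and above 30% in both other lines.

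The last comparison was between nuclear and cytoplasmic RNA of A375, again at 1 library each and without a test, for exons with at least 20 reads in both. The fractions were within 10 points for 996 of 1100 exons (90.5%). A difference counted when it was at least 10 points and the intervals of the fractions did not overlap. By that rule 23 exons were higher in the library labelled nuclear and 7 lower, or 2.09% and 0.636%, where 1.29% and 0.611% of all cassette exons compared were higher and lower. Frame-keeping exons of these lengths gave 9 higher and 7 lower of 1038. Of the 23 exons higher in the nuclear library, 13 bring an early stop when included and 6 when skipped. Of exons whose inclusion brings an early stop, 13 were higher and 5 lower of 335 compared. Of those whose skipping does, 6 were higher and 1 lower of 358. Among exons whose skipping (38) or inclusion (56) shifts the frame without an early stop the counts were 0 and 0. Those classes are too small for 0 calls to be read against the 1.29% over all exons.
CCNL1, a cyclin of transcription and splicing complexes, carries a 73-nt exon that brings an early stop. It was included in 76.2% of nuclear, 57.7% of total and 33.3% of cytoplasmic reads. A 71-nt exon of PTCD3, a mitochondrial ribosomal protein, stood at 38.1%, 24% and 7.53% in that order, and a 46-nt exon of the ubiquitin ligase ARIH2 at 32.3%, 20% and 9.54%. The splicing factor genes RBM39 and PRPF38B had such exons at 39.9%, 26.2% and 20.8%, and at 23.3%, 20% and 4.29%. In each of these 5 exons, all with the stop codon on the inclusion side, the total RNA lay between the fractions. The RBM39 exon is also one of those lower at 96 hr. The PTCD3 exon was called in the other direction, with a median of 3.74% at 48 hr and 10.7% at 96 hr (edgeR adjusted p = 3.49e-04). Those of CCNL1, ARIH2 and PRPF38B were not called between times.
EPHA2, a receptor tyrosine kinase, went the other way round in its frame: skipping of its 68-nt exon brings the early stop. Inclusion was 94.96% in nuclear, 92.4% in total and 61.4% in cytoplasmic RNA, on 176 to 258 reads, so the skipped form was in the minority in each and had its highest share in the cytoplasm. Among the exons lower in the nuclear library, TRMT13, a tRNA methyltransferase gene, had a 70-nt exon at 74% in nuclear, 79.4% in total and 96.1% in cytoplasmic RNA. A 65-nt exon of ITPA, which clears inosine triphosphate, was at 88.8%, 96.9% and 99.2%, and skipping of it brings an early stop. TECR, an enzyme of fatty acid elongation, had a 67-nt exon at 1.10%, 2.04% and 12.4% on 91 to 113 reads. Splicing and RNA-binding protein genes had 34 exons compared, with 3 higher in the nuclear library and 0 lower, beside the 1.29% and 0.611% over all exons compared. Uneven inclusion junctions were seen in 3 of the 23 higher exons and 1 of the 7 lower ones.

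**Figure D5:**
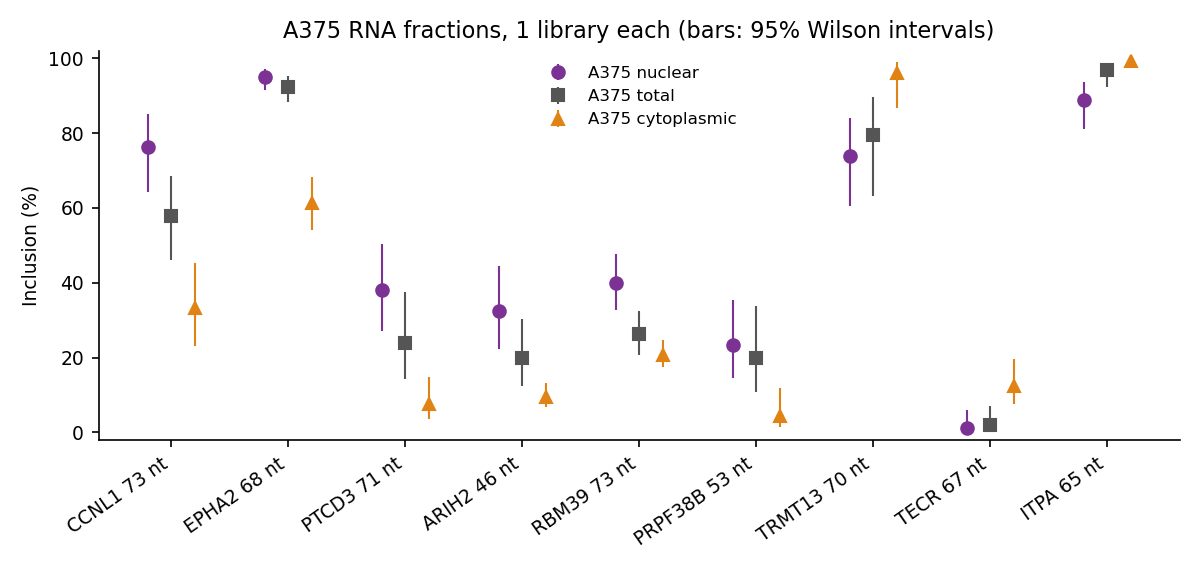
Inclusion (vertical axis, percent) in nuclear, total and cytoplasmic RNA of A375, 1 library each, for the exons with the largest differences and at least 50 reads in each fraction; bars are 95% Wilson intervals, which cover counting error only. CCNL1 stands at 76.2% in nuclear and 33.3% in cytoplasmic RNA, and total RNA lies between the fractions in all 9 exons.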

How the data were processed

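The deposited junction tables hold read counts per splice junction for each of 19 libraries of ribosome-depleted RNA on hg38. The submitters' processing notes list STAR 2.7.1 and SAMtools 1.9, and what each was used for is not given in the sources used here. The authors' deposited tables of splicing events give inclusion levels and differences as fractions and p-values with adjusted values. From these only the differences and adjusted p-values of named exons were taken, and 69 per-library columns were not used.

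Cassette exons came from GENCODE 29. Inclusion reads were the rounded mean of both inclusion junctions. Exons averaging 20 or more reads per library, with pooled inclusion of 2 to 98%, were tested with edgeR 4.0.16 (R 4.3.3) on the paired inclusion and skipping counts of 14 doxycycline-treated libraries, with terms for library, library set and knockdown, TMM factors, and Benjamini-Hochberg adjustment over all 6716 exons. The procedure was first tested on simulated data. Differences in points are means over library sets, with SD. DESeq2 1.42.0 and limma 3.58.1 were alternatives, as were other filters, the smaller junction, and leaving out each library. A library set is a time and replicate number within 1 library series. Libraries of a set deviated together (median r = 0.235 over 18 pairs, lowest 0.0746), so the set is the replicate block of the design.

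Cell lines and fractions have 1 library each and were compared by size, with 95% Wilson intervals that cover counting error only. Frame classes came from complete coding GENCODE transcripts, with a stop over 50 nt ahead of the last junction called early, and were chosen after the junction tables had been read. The members and gene lists were chosen with earlier results of these data known. Named exons are those called per knockdown, the 6 largest time differences with 1 direction, the 6 largest per direction between fractions (at least 50 reads each) and for HUES66, the 4 largest between A375 and HEK293, and up to 4 of the deepest per list. Further ones are marked above as named or chosen after their values were seen. Intron bases planned beside the exons were not used, since no genome was at hand, and exonic bases are shown instead. The sequence of 1 named exon is not reported here.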

Additional observations from a re-analysis of the deposited data

Results flagged for a closer look

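In N-short KD the DLEU1 exon at 48 hr was at 21.6%, far from the other 3 libraries of the group (56.9 to 61.9%). The 68-nt DNMT3A exon at 48 hr was at 27.03% in N-short KD, where the others had 61.5 to 64.4%, and at 34.1% in N-long KD, where the others had 60.5 to 62.3%. Both exons were named for their large difference between 48 and 96 hr, so a 48 hr library that stands apart restates that choice. The ARHGAP17 exon differed between the isoform knockdowns, with -23.85 points in N-long KD relative to N-short KD by the test of that difference itself (edgeR adjusted p = 2.69e-04). RBFOX2, counted over all its junctions and not by isoform, stood at 57.8 to 71.7% of the control of the same set in N-long KD. It stood at 89.8 to 98.6% in N-short KD, and the part of this in the difference was not tested.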

How the results depend on the processing

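No result reversed its direction under the alternatives run. Exons called in total KD numbered 3 in the report, 1 with DESeq2, 7 with HUES66 wild type taken as the control of 24 hr replicate 1, and 1 to 3 with each library left out, the lowest being without total KD at 48 hr. The call in N-long KD, and that in N-long KD against N-short KD, became 2 exons without the filter on pooled inclusion and 0 with DESeq2 and with limma, and stayed at 1 without any 1 library. N-short KD gave 0 calls throughout. Without the replicate block the counts were 2 in total KD, 1 in N-long KD, 1 in N-long KD against N-short KD, 0 in N-short KD and 106 between times, and the OSBPL8 call was lost. Between 48 and 96 hr the 126 calls became 41 with DESeq2, all 41 shared, and 87 to 106 with each library left out, of which 86 to 97 were shared. With limma 91 of 108 calls were shared, and without the filter on pooled inclusion 79 of 90. Between fractions the 30 exons became 13 at a minimum of 50 reads and 17 at 20 points. For HUES66 the 9 exons became 2 at 50 reads, 27 at 10 points and 4 with the wild type library alone. Between A375 and HEK293 the 12 exons became 5 at 50 reads, 22 at 10 points and 6 with the smaller junction. The cause was not tested for any of these. DESeq2 gave no adjusted p for the FZD3 and CCDC169 exons. Few reads per exon limit all single-library comparisons.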
